A study of Schizosaccharomyces pombe with 15 samples.

Results

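The data describe where the transcriptional repressor Scr1 bound the genome of Wilmar-P in molasses, compared with glucose. Wilmar-P is an industrial Schizosaccharomyces pombe isolate used to ferment molasses, the syrup left after cane sugar is crystallised. Chromatin immunoprecipitation followed by sequencing (ChIP-seq) was used, and the 4 peak lists of Wilmar-P Scr1 were chosen out of the 15 samples of the series. These lists held 2648 of the 11366 Scr1 peaks on chromosomes I, II and III. In both groups the strain was Wilmar-P Scr1-TAP (h90 scr1::TAP-KanMX6), in which Scr1 carries a tandem affinity purification tag at the end of its own gene, and chromatin was precipitated with an antibody against the Protein A part of the tag. Cells of the molasses group were moved to molasses medium and those of the glucose group to YES with 3% glucose, from cultures grown in glucose and divided between the media, and both were fixed 4 h later. Each medium had 2 biological replicates and its own input sample. The strain in both groups is tagged, and a precipitation from untagged cells was not analysed here.

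Scr1 is a C2H2 zinc finger protein of the Mig1 family, which recognises GC-rich sequence and represses genes for the use of poorer carbon sources while glucose is plentiful. In S. pombe it opposes Rst2, an activator of the same genes that is controlled by cAMP and protein kinase A, and it acts with the Tup11, Tup12 and Ssn6 corepressors. When glucose runs out, AMP-activated kinase signalling moves Scr1 out of the nucleus. The sugars of molasses are mainly sucrose, glucose and fructose, and yeast splits sucrose outside the cell with invertase.

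A peak list gives, for each replicate, the places where precipitated DNA exceeded the input. Its fold enrichment is the height of a peak over the background estimated from the input, as the authors computed it, and its summit is the highest point. Within a medium, overlapping peaks (1 bp or more) of the 2 replicates were joined into regions, and those with a peak in both replicates were kept, which left 851 regions in molasses and 200 in glucose. A molasses region was called in both media if it shared at least 1 bp with a glucose region. Regions are termed upstream where the summit is not in a coding exon and a protein-coding gene starts no more than 1000 bp further on. Bound genes are those whose start was nearest to the strongest summit of a region, at a distance of at most 1000 bp.

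Short sequences around the summits are shown for 4 of the strongest regions of both media (plb1, SPCC794.04C, mug114 and SPAC56F8.13, each named by its nearest gene) and for the 4 leading molasses-only regions that held a searched word (SPAC2H10.04, SPCC965.13, aah1 and SPBC3H7.05C), as examples of the words and their setting. They are not a sample of either class: the molasses-only regions were taken for holding a word, and not all of the strongest regions of both media are shown. Capitals mark the word nearest to the summit: a Mig1-type word (GCGGGG, as in plb1, or the same word with GT, CC or CT in place of its first GC), a CCAAT box, to which CCAAT-binding factors bind, or the core of a cAMP response element (TGACGT, the word of the Atf1-Pcr1 factors). The sequence is that of the laboratory reference strain (RefSeq, ASM294v3), read 5′ to 3′ on the strand that spells the word. Wilmar-P can differ from it.
plb1 (chrI:1078133-1078218, plus strand): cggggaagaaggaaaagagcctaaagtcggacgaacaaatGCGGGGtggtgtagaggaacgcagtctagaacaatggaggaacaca
SPCC794.04C (chrIII:252283-252368, plus strand): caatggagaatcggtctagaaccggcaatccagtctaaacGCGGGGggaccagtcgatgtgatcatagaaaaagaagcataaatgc
mug114 (chrI:2663985-2664014, minus strand): gaatgtattgctGCGGGGtaagtctattcc
SPAC56F8.13 (chrI:1150259-1150287, plus strand): ttcaaactgcgcCCAATaaatcacgtact
SPAC2H10.04 (chrI:5270095-5270180, minus strand): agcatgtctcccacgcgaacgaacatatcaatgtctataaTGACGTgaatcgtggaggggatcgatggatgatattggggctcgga
SPCC965.13 (chrIII:2309828-2309913, plus strand): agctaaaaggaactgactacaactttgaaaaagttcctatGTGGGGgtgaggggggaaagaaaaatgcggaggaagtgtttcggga
aah1 (chrIII:72707-72792, minus strand): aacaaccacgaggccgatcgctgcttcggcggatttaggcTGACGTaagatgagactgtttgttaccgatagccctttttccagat
SPBC3H7.05C (chrII:1873213-1873241, plus strand): gtcaatgtgcctCCAATtacaactttttc

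The molasses lists held 961 and 1073 peaks and the glucose lists 386 and 228, so the lists of the 2 media did not overlap in length. With 2 lists a side an exact permutation test cannot go below the p of 0.33 that it gave here (two-sided), so the difference was not tested further. Peaks covered 4.11% and 4.53% of the genome in molasses, against 1.26% and 0.594% in glucose. The 2 glucose lists also differed from each other: coding exons held 35.5% of the summits in replicate 1 and 8.77% in replicate 2, and a peak had an enrichment under 3 in 34.2% and 5.26% of cases. Read numbers are not part of the lists, and depth is therefore unknown. The significance that MACS2 gave to a peak of a given enrichment differed between the media. Among peaks enriched 5- to 6-fold, the median −log10 p was 85.3 and 166 in the molasses replicates, against 31.6 and 19.3 in the glucose replicates. A molasses peak could therefore pass the calling threshold at a lower enrichment than a glucose peak, down to 1.32 and 1.25 in molasses, against 1.78 and 1.94 in glucose. The part of depth in the number of regions was not tested.

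**Figure D1:**
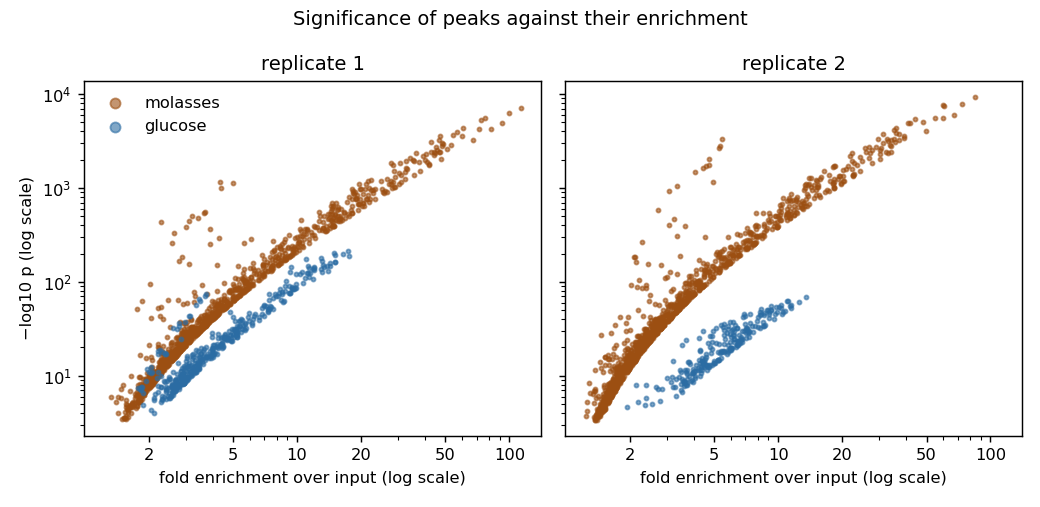
Significance of every peak (−log10 p, vertical, log scale) against its fold enrichment over input (horizontal, log scale), with replicate 1 on the left and replicate 2 on the right, molasses in brown and glucose in blue. At an enrichment of 5 to 6 the molasses peaks had median −log10 p values of 85.3 and 166, above 31.6 and 19.3 for the glucose peaks.

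Nearly all of what Scr1 bound in glucose it also bound in molasses. Of the 851 molasses regions, 185 (21.7%) were called in glucose and 666 were not, while 198 of the 200 glucose regions (99%) were called in molasses and 2 were not. Of the 666 molasses-only regions, 105 had a peak in 1 of the glucose lists, 91 of them in replicate 1 and 14 in replicate 2, and 561 had none. The overlap followed the strength of the molasses region. Among the 100 regions with the best mean rank by p in molasses, 87 were called in glucose and 3 had no glucose peak at all. Among the next 100 there were 58, and among the third 100 there were 25. From the position 701 to the last, 851, none was called in both glucose replicates.

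**Figure D2:**
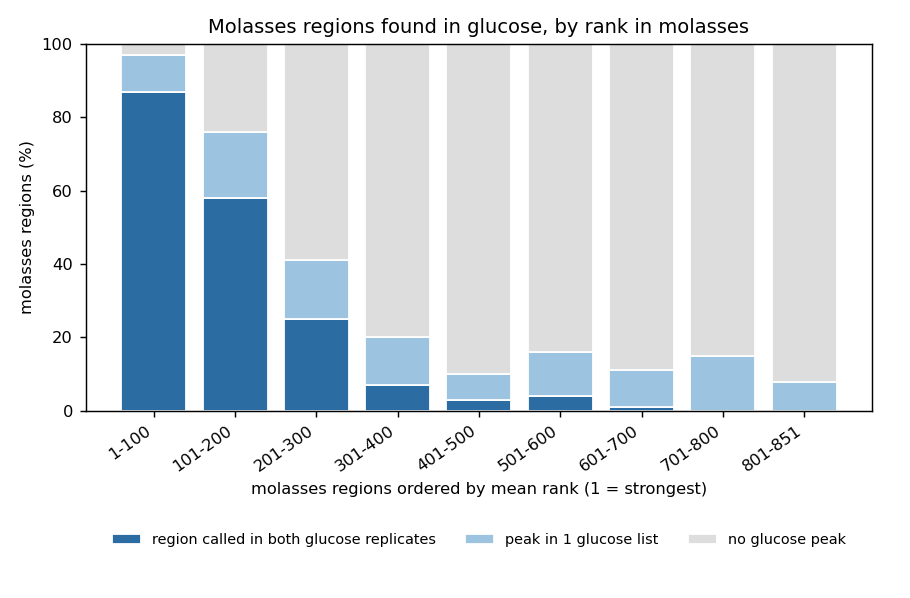
Share of molasses regions (percent, vertical) that were called in both glucose replicates (dark blue), had a peak in 1 glucose list (light blue) or had no glucose peak (grey), in bins of 100 regions ordered by mean rank in molasses, the last bin holding 51. The dark share was 87% in the first bin, 58% in the second and 0% in the last.

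Regions of similar strength in molasses fell into both classes. In the band of mean enrichment from 15 to 30, away from the chromosome ends, 15 of 75 regions were molasses only and 60 were called in both media. At those 60 the mean glucose enrichment had a median of 6.38 and ranged from 2.51 to 11.6. Of the 15, 8 had no glucose peak, and 7 had a peak in 1 glucose list, with an enrichment of 2.66 to 4.09. These glucose values follow from how the classes were defined. Their ranges overlapped: the region upstream of yhb1 counted as bound in both media with glucose enrichments of 2.67 and 2.36, while the region near aco1 was molasses only with 4.09 in glucose replicate 2 and no peak in replicate 1.

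At regions of both media, enrichment was higher in molasses almost throughout. For 184 regions that were each other's strongest match, the median enrichment was 18.8 and 13.8 in the molasses replicates, against 5.52 and 5.93 in the glucose replicates. The median ratio of mean enrichment was 2.98, or 1.57 on the log2 scale (quartiles 1.04 and 1.93). Both molasses values lay above both glucose values at 170 of the 184 and below both at 4. Each enrichment was computed against the input of its own medium, so the general level of the ratio cannot be told apart from a difference between the immunoprecipitations or inputs. At the paired regions the summits of the 2 media lay a median of 25.5 bp apart, and 139 of the 184 were within 50 bp of each other. Between replicates the median was 8 bp at molasses regions of both media and 17 bp at all glucose regions. Regions had to overlap to be paired, so close summits follow in part from how the pairs were made. The order of the regions was shared in part: across these regions, which are not replicates and share their libraries, Spearman's rho of enrichment was 0.98 between the molasses replicates, 0.65 between the glucose replicates and 0.55 to 0.78 between the media.

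**Figure D3:**
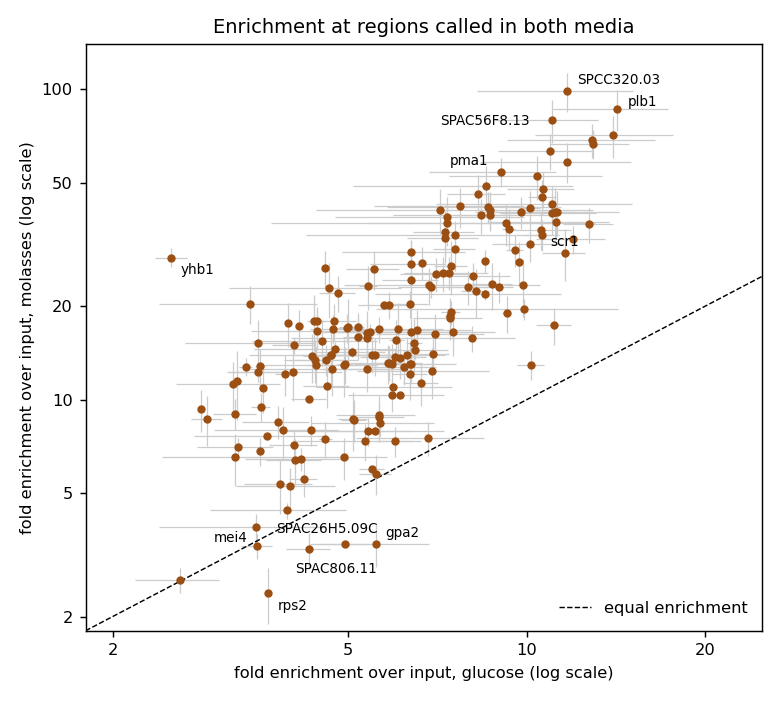
Fold enrichment over input in molasses (vertical, log scale) against glucose (horizontal, log scale) at 184 regions called in both media. Points are means of 2 replicates and grey lines join the replicates, and the dashed line marks equal values. All but a few points lie above the line, by a median factor of 2.98, and gpa2, rps2, SPAC26H5.09C, SPAC806.11 and, narrowly, mei4 lie below it.

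The 10 strongest regions of both media were ordered by their mean rank over the 4 lists, and 4 of their nearest genes encode transporters. The first, 1526 bp upstream of plb1 (SPAC1A6.04C), which encodes a lysophospholipase, was enriched 99.1- and 73.3-fold in molasses, against 17.3- and 11.1-fold in glucose, with the ranks 2 and 2 in molasses and 1 and 2 in glucose. It held the Mig1-type word GCGGGG 43 bp from the summit. The region 2151 bp upstream of the transporter gene SPCC794.04C had enrichments of 73.9 and 59.5 in molasses, against 14.9 and 11.0 in glucose. Its GCGGGG lay 19 bp from the summit. The region 542 bp upstream of ght8, a hexose transporter gene, had 77.1 and 60.3 in molasses, against 16.5 and 9.28 in glucose. These 3 regions were among the 8 strongest of every list.

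The highest enrichment of all, 113 and 84.4 in molasses against 15.1 and 8.25 in glucose, lay 1516 bp upstream of SPCC320.03, which is annotated as a transcription factor. Both molasses replicates had it as their strongest peak, and the glucose replicates as numbers 9 and 19. The others were at mug114 (82.0 and 60.1, against 17.6 and 10.3), SPAC56F8.13 (92.5 and 67.0, against 13.2 and 8.83) and SPBC32H8.15 (67.2 and 49.8, against 15.02 and 8.34). These 3 summits lay downstream of the annotated start of their nearest gene, by 1031, 432 and 228 bp in molasses. The last 3 were upstream of SPBC36.02C, a spermidine family transporter gene (71.9 and 55.1, against 12.96 and 8.93), of the transporter gene SPCC1529.01 (54.1 and 41.6, against 12.02 and 9.26) and of SPCC417.16, annotated as an NADH:ubiquinone reductase subunit (60.8 and 44.1, against 13.4 and 7.3999). In all 10 the lowest molasses value was above the highest glucose value.

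The 5 largest ratios, molasses over glucose, were at yhb1, SPCC320.03, SPAC56F8.13, plb1 and pma1. At yhb1, which encodes a nitric oxide dioxygenase, enrichment 296 bp upstream of the start was 30.7 and 26.7 in molasses, against 2.67 and 2.36 in glucose (log2 ratio 3.51). At pma1, the gene of the proton pump of the plasma membrane, it was 60.1 and 48.3, against 11.2 and 6.84 (log2 ratio 2.58). The 5 smallest were at gpa2, rps2, SPAC26H5.09C, SPAC806.11 and mei4. At gpa2, which encodes the G protein alpha subunit of the glucose-sensing cAMP pathway, enrichment was 3.94 and 2.89 in molasses, against 6.84 and 4.29 in glucose, with summits 1129 bp and 836 bp upstream (log2 ratio -0.70). At rps2, a ribosomal protein gene, it was 2.87 and 1.89, against 3.71 and 3.63, inside the coding exon (log2 ratio -0.62). At SPAC26H5.09C, an oxidoreductase gene, it was 3.48 and 3.37, against 4.45 and 5.401 (log2 ratio -0.52). At SPAC806.11, of unknown function, it was 3.73 and 2.86, against 3.92 and 4.66 (log2 ratio -0.38). At these 4 regions the glucose values lay above the molasses values. At mei4, a meiotic forkhead factor gene, the values overlapped (3.69 and 3.06, against 3.29 and 3.71).

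The strongest molasses-only regions away from the chromosome ends lay near genes of several kinds, among them the flocculation regulator gene mbx2 and the surface protein genes meu10 and aah1. The first lay 2276 bp upstream of SPAC2H10.04, of unknown function (32.8 and 24.7 in molasses), and the next 2759 bp upstream of SPCC1795.12C, of unknown function (28.0 and 22.7). Others were at meu10, a GPI-anchored protein gene needed for the spore wall (18.1 and 14.3, inside its coding exon), 1481 bp upstream of the DNA helicase gene rrp1 (28.5 and 19.8, with 3.80 in glucose replicate 2) and 1556 bp upstream of the transporter gene SPCC965.13 (22.8 and 18.2, with 4.01 in glucose replicate 1). A pair of molasses-only regions lay 1129 and 3064 bp upstream of mbx2, a MADS-box activator of flocculation genes, with enrichments of 25.5 and 18.3 and of 18.1 and 14.3. Neither had a glucose peak. The remaining 3 were nearest to aes1 (17.1 and 14.8, with 2.66 in glucose replicate 1), aah1 and SPBC3H7.05C (21.9 and 18.3, with 2.94 in glucose replicate 1). The region of aah1, which encodes a GPI-anchored enzyme of the alpha-amylase family, lay 136 bp upstream of the start, with enrichments of 19.7 and 18.1 in molasses and no peak in glucose, and TGACGT was centred 10 bp from its summit. Within 100 bp of their summits, 4 of these 10 regions held a word of the 3 kinds above, and 6 held none. SPAC2H10.04 and meu10 were not bound in molasses alone, as each also had a region of both media nearer to its start. At SPAC2H10.04 it lay 550 bp upstream (47.7 and 34.2 in molasses, against 7.14 and 7.16 in glucose). At meu10 it lay 475 bp upstream (13.2 and 9.20, against 3.84 and 2.56).

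Repeated and highly transcribed places were found among the molasses-only regions. Within 50 kb of a chromosome end there were 44 molasses-only regions (6.61%) and 1 region of both media (0.541%). Of the 44, 24 were on chromosome III, whose ends hold the ribosomal DNA repeats, and 17 of these had a peak in 1 glucose list. The 10 strongest by rank were all on chromosome III, nearest to SPCP20C8.01C at one end and SPCC569.01C at the other, with ranks from 61 to 183 in replicate 1 and enrichments of only 3.01 to 4.98 there and 3.33 to 5.45 in replicate 2. Within 200 bp of a tRNA gene there were 23 molasses-only regions (3.45%) and no region of both media (0%). The 23 were enriched 2.82- to 5.71-fold in replicate 1 and 2.84- to 4.94-fold in replicate 2. Only 1 of the 23 had a glucose peak. The shares of the genome near chromosome ends and near tRNA genes were not computed, so these percentages have no background beside them.

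Only 2 regions were called in glucose alone, both on chromosome I and both weak. The first (4007802 to 4008010) lay 276 bp upstream of SPAC27E2.03C, an Obg-like ATPase gene, with enrichments of 3.16 and 3.29 in glucose and ranks 264 and 222. The second (4457419 to 4457619) lay 1853 bp upstream of atd1, an aldehyde dehydrogenase gene, with 3.42 and 4.18 and ranks 250 and 177. Neither held a searched word within 100 bp of its summit. The count depended on the shorter glucose list: without glucose replicate 2 there were 386 glucose regions and 71 of them were glucose only, and without glucose replicate 1 there were 5 glucose-only regions. When each list was cut to its 228 strongest peaks, the length of the shortest list, 143 molasses regions were called in glucose, 78 were not, and 23 glucose regions were not called in molasses. All 23 had a peak in both full molasses lists, ranked 199 to 615 in replicate 1. They included 2 regions upstream of SPAC806.11 and regions upstream of ste7, map2, hsp16, gut2, tgp1, cgs1 and mdh1, which are named here after their values were seen. Of the 78, 8 had a peak in both full glucose lists and 29 in 1 of them.

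The position of the summits differed between the classes. Of the molasses-only regions 43.7% were upstream of a gene (291 of 666, 95% Wilson interval 39.97 to 47.5), against 69.2% of the regions of both media (128 of 185, 62.2 to 75.4). Coding exons held 28.5% of the molasses-only summits and 7.57% of those of both media, while they make up 57.1% of the genome. Annotated non-coding RNA genes, many of which overlap promoters in S. pombe, held 42.6% and 61.1%. Among the 200 best-ranked molasses regions the upstream shares were 41.8% (23 of 55) and 69.0% (100 of 145). The upstream gap was thus also there among strong regions, although 25.5% of those 55 lay near a chromosome end. The other gaps were not: coding exons held 9.09% and 6.90% of the summits of these 200. Non-coding RNA genes held 65.5% and 62.1%, the reverse order of the full classes. The upstream gap depended on glucose replicate 2: without it the upstream shares were 46.8% for molasses-only regions and 54.3% for regions of both media. With peaks of at least 3-fold enrichment they were 58.5% and 71.3%. Coding summits gathered at the weak end of the molasses list, with 9% of the first 100 regions and 84.3% of the last 51. These intervals cover counting error only.

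The searched words other than the HomolD box were less frequent at molasses-only summits than at those of both media. A Mig1-type word lay within 100 bp of the summit, on either strand, at 12.8% of the molasses-only regions (85 of 666, 10.4 to 15.5) and at 33.0% of the regions of both media (61 of 185, 26.6 to 40.03). Of 201-bp promoter windows of all 5113 protein-coding genes, 5.09% held such a word, and of all windows of this length in the genome 5.38%. The CCAAT box was found at 33.3% and 59.5% (promoters 29.2%, genome windows 37.4%), and TGACGT at 8.56% and 27.6% (promoters 4.83%, genome windows 3.22%). CCCCTC, the stress-responsive element bound by Rst2, was found at 3.30% and 11.4% (promoters 1.47%, genome windows 1.96%), and can overlap a Mig1-type word on the other strand in part. CAGTCACA, the HomolD box of ribosomal protein promoters, was found at 0.751% and 1.08%, between the 0.376% of genome windows and the 2.58% of all promoters. These were 5 of 666 and 2 of 185 regions, with overlapping intervals (0.321 to 1.75 and 0.297 to 3.86). Within the 200 best-ranked molasses regions the Mig1-type shares were 16.4% and 32.4%. The classes also differ in their share of coding sequence, and its part in the word shares was not tested. A word is a description of the sequence and does not show what Scr1 touched.

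By genes, 531 of 5113 protein-coding genes (10.4%) were bound in molasses and 150 (2.93%) in glucose. Of these, 141 (2.76%) were bound in both media, 390 (7.63%) in molasses only and 9 (0.176%) in glucose only. The 9 were SPAC27E2.03C, SPAC1834.13, SPAC2H10.01, agl1, atd1, fip1, gpa2, loz1 and pyp2. All but SPAC27E2.03C were in regions called in both media, where the strongest molasses summit lay beyond 1000 bp or nearer to another gene. Between the iron permease gene fip1 and the oxidase gene fio1, which share a promoter, the summits of the 2 media were 12 bp apart and the call moved to the neighbour. Without glucose replicate 2 the glucose-only genes numbered 52. At agl1, a maltose alpha-glucosidase gene, the molasses summit was 1207 bp upstream (18.2 and 12.2) and the glucose summit 425 bp upstream (6.26 and 6.67).

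Genes of sugar uptake were bound in both media. Of the 8 hexose transporter genes, 5 were bound in molasses and 4 in glucose, against a background of 10.4% and 2.93% of all genes. Their median enrichment was 36.8 in molasses, against 4.30 over all molasses-bound genes, and 10.7 in glucose, against 5.80 over all glucose-bound genes. At ght3, a gluconate symporter gene, enrichment was 41.6 and 32.1 in molasses, against 14.0 and 11.5 in glucose. At ght4 it was 46.7 and 37.1, against 11.4 and 5.81, and at ght2, a glucose and fructose symporter gene, 30.1 and 22.5, against 4.95 and 6.08. Only ght7 was bound in molasses alone (4.53 and 3.11). At ght5, the main high-affinity glucose transporter gene, a summit of each medium lay within 1000 bp of the start but nearer to another gene.

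Of 8 genes for disaccharide and starch use, 3 were bound in molasses and 2 in glucose (37.5% and 25%, against 10.4% and 2.93% of all genes). The invertase gene inv1, the enzyme that splits sucrose, was bound in both media 204 bp upstream of its start, with 12.8 and 9.05 in molasses, against 3.64 and 3.53 in glucose. The amylase-family genes aah1 (above) and aah3 (3.04 and 2.48) were bound in molasses only. In this group no gene other than inv1 was bound in both media by the nearest-gene rule.

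Glycolysis was the list with the largest share bound. Of 15 glycolysis and fermentation genes, 12 were bound in molasses and 8 in glucose (80% and 53.3%, against 10.4% and 2.93% of all genes). The 8 bound in both media were pfk1, fba1, tpi1, tdh1, pgk1, gpm1, eno101 and pyk1, which cover consecutive steps from phosphofructokinase to pyruvate kinase. At tdh1, a glyceraldehyde-3-phosphate dehydrogenase gene, enrichment was 56.5 and 40.8 in molasses, against 11.96 and 5.09 in glucose. At pgk1, phosphoglycerate kinase, it was 45.0 and 32.5, against 9.90 and 4.75, and at pyk1, pyruvate kinase, 19.9 and 15.9, against 4.59 and 4.26. At all 8 the molasses values lay above the glucose values. The 4 bound in molasses only had weak regions within 1000 bp of their start: gpd3 (6.57 and 5.36), pdc201 (5.85 and 3.99), and the hexokinase genes hxk1 (2.59 and 2.33) and hxk2 (2.28 and 2.28, in its coding exon). None of these 4 regions had a glucose peak. Farther out, 1285 bp upstream of gpd3, a second glyceraldehyde-3-phosphate dehydrogenase gene, lay a strong region of both media (46.9 and 33.8, against 14.3 and 8.19).

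Among 10 genes of gluconeogenesis, glycerol and ethanol metabolism, 4 were bound in molasses and 5 in glucose (40% and 50%, against 10.4% and 2.93% of all genes). The alcohol dehydrogenase gene adh1 had 43.9 and 34.96 in molasses, against 11.4 and 5.94 in glucose, and the glycerol dehydrogenase gene gld1 had 27.6 and 19.5, against 9.44 and 8.04. The glycerol-3-phosphate dehydrogenase genes gpd1 (19.5 and 13.9, against 4.99 and 8.07) and gut2 (8.47 and 6.47, against 4.46 and 4.69) were also bound in both. The fifth, counted in glucose only, was atd1 (5.41 and 3.72). It lay in a region called in both media, whose molasses summit was 1029 bp upstream, just beyond the limit (15.9 and 11.8). The gluconeogenic gene fbp1, a textbook target of glucose repression, was bound in neither medium.

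**Figure D4:**
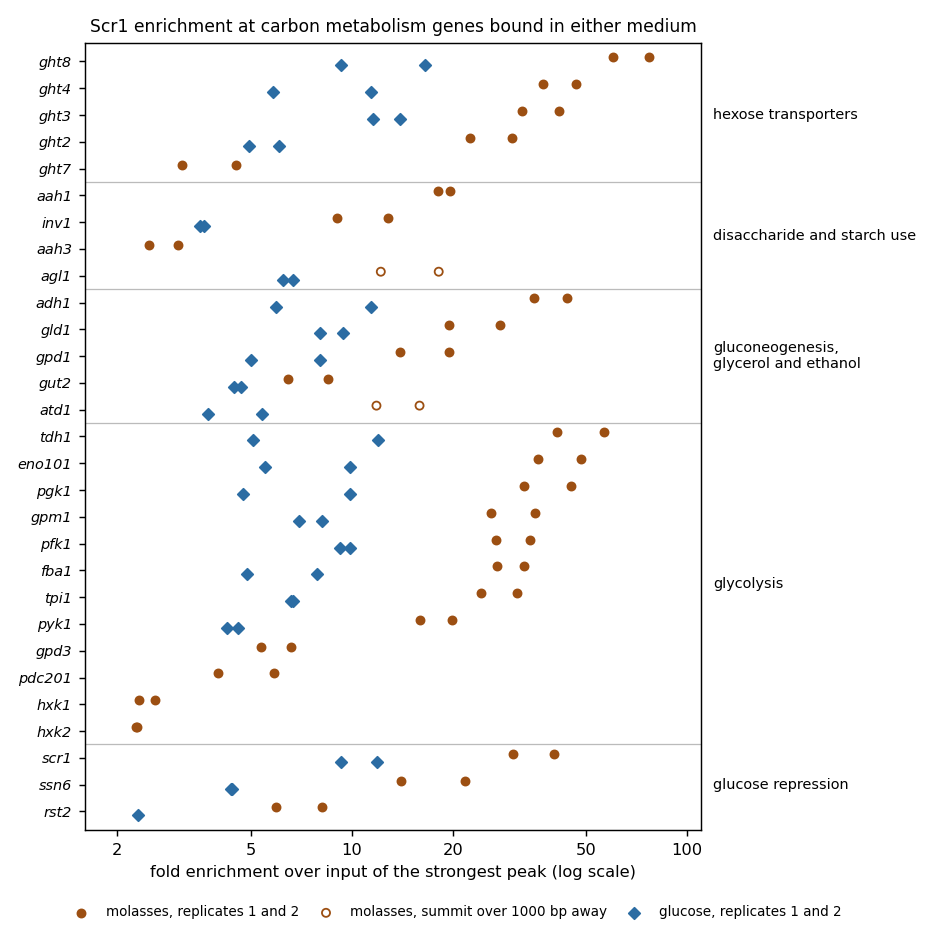
Fold enrichment of the strongest peak (horizontal, log scale) in each replicate at the carbon metabolism genes bound in either medium, grouped by list, with molasses as brown circles and glucose as blue diamonds. Open circles are molasses peaks whose summit lay over 1000 bp from agl1 or atd1, and a gene without diamonds was not bound in glucose. At each gene with values in both media the molasses values are the higher, for example 77.1 and 60.3 against 16.5 and 9.28 at ght8.

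Genes of the glucose-response machinery were bound in part. Scr1 bound upstream of its own gene, scr1 (SPBC1D7.02C), at 2 places in both media. The stronger, 920 bp upstream, had 40.1 and 30.3 in molasses, against 11.9 and 9.26 in glucose, and the other, 230 bp upstream, had 14.2 and 10.01, against 5.93 and 6.78. The corepressor gene ssn6 was bound in both (21.7 and 14.0, against 4.37 and 4.38). Rst2 was represented by a molasses-only region 183 bp upstream of rst2 (8.13 and 5.93), with a peak of 2.31 in glucose replicate 1. Together 3 of the 8 genes of this list were bound in molasses and 2 in glucose (37.5% and 25%, against 10.4% and 2.93% of all genes). In the cAMP pathway 4 of 11 were bound in molasses and 3 in glucose (36.4% and 27.3%). The kinase regulatory subunit gene cgs1 (7.90 and 6.401, against 4.43 and 3.67) and the phosphodiesterase gene cgs2 (18.1 and 12.99, against 5.84 and 6.20) were bound in both, and the chaperone gene hsp90 (8.69 and 5.59, with 2.55 in glucose replicate 1) and the glucose receptor gene git3 (3.69 and 3.38) in molasses only.

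Stress genes were bound in both media at their strongest members. Of 11 stress effector genes 5 were bound in molasses and 4 in glucose (45.5% and 36.4%, against 10.4% and 2.93% of all genes). At hsp9, a heat shock protein gene, enrichment was 19.8 and 15.01 in molasses, against 11.9 and 10.4 in glucose, and at cta3, a calcium ATPase gene, 35.7 and 27.8, against 8.74 and 11.5. The trehalose synthase gene tps1 (19.7 and 13.4, against 4.53 and 8.24) and the small heat shock gene hsp16 (8.85 and 7.11, against 4.04 and 4.63) were also bound in both, while the catalase gene ctt1 was bound in molasses only (8.26 and 7.00). Of 16 Sty1 pathway genes 4 were bound in molasses and 3 in glucose (25% and 18.75%). The transcription factor gene atf1 (18.7 and 15.1, against 5.11 and 4.30) and the kinase gene srk1 (14.6 and 10.6, against 4.52 and 6.22) were bound in both. The regulator genes prr1 (5.23 and 4.10) and mpr1 (2.86 and 2.16) were bound in molasses only, and the phosphatase gene pyp2 in glucose only (5.04 and 6.65), with the molasses summit 1054 bp upstream (14.9 and 11.5).

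Other lists had more members bound in molasses than in glucose, as had all protein-coding genes (10.4% against 2.93%). Whether a list below differs from that background in its balance between the media was not tested. Of 10 transcription factor genes that the study names, a list drawn from these same samples and so no independent evidence, 7 were bound in molasses and 1, loz1, in glucose. Those bound in molasses included gaf1, a nutrient-sensing factor gene (13.8 and 9.90), rst2, pho7, a regulator of phosphate genes (7.33 and 5.74, with 3.96 in glucose replicate 1), esc1 (6.80 and 5.38), prr1 and sre2 (3.96 and 3.63). At loz1 (3.12 and 3.93 in glucose) the molasses summit was nearer to SPAC683.03. Of 13 iron uptake and regulation genes 9 were bound in molasses and 4 in glucose. The ferric reductase gene frp1 (9.95 and 7.28, against 4.87 and 5.35) and the siderophore transporter genes str1 (12.7 and 9.39, against 4.19 and 5.02) and str3 (10.8 and 7.86, against 2.84 and 2.79 in the glucose region nearest to it) were bound in both. The others in molasses were fio1 (18.9 and 13.7), the ferrichrome synthetase gene sib1 (9.70 and 7.86, with 5.21 in glucose replicate 1), fet4 (8.09 and 6.15), shu1 (5.10 and 4.21) and the regulator genes fep1 (3.74 and 2.46) and php4 (2.73 and 2.80). The region of fio1 was called in both media. Its glucose enrichments were 8.47 and 5.56, and the nearest start to the glucose summit was that of fip1, the fourth gene in glucose.

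Flocculation genes gave 7 of 15 in molasses and 2 in glucose (46.7% and 13.3%, against 10.4% and 2.93% of all genes). The adhesin gene pfl2 was bound in both (36.2 and 29.6, against 10.4 and 13.6). The adhesin genes pfl3 (5.20 and 4.95), pfl8 (3.99 and 3.05) and pfl5 (2.52 and 2.003), gsf2 (7.49 and 5.62) and sre2 were bound in molasses only. A stronger region, 1658 bp upstream of gsf2, was called in both media (53.1 and 39.0, against 9.20 and 7.34). At gsf1 a molasses-only region lay 648 bp inside the gene (23.3 and 15.8), and a region of both media lay upstream, with summits 1003 bp from the start in molasses (44.3 and 34.1) and 130 bp in glucose (9.26 and 7.51). Mating and meiosis genes gave 6 of 17 in molasses and 2 in glucose (35.3% and 11.8%). The meiotic regulator gene mei2 (6.97 and 5.90, against 3.34 and 4.99) and the pheromone gene map2 (6.03 and 5.90, against 5.21 and 5.75) were bound in both, and at map2 the 2 media differed little. The pheromone exporter gene mam1 (11.7 and 8.87), the kinase gene byr2 (4.50 and 3.71, with 3.04 in glucose replicate 1), mei3 (4.96 and 3.64) and ste7 (3.17 and 2.33) were bound in molasses only. A further region, 1844 bp upstream of ste7, was called in both media (9.20 and 7.62, against 6.97 and 4.32).

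Of 7 drug efflux genes 3 were bound in molasses and 1 in glucose (42.9% and 14.3%, against 10.4% and 2.93% of all genes). They were the brefeldin A efflux gene bfr1 in both (30.1 and 22.9, against 4.56 and 4.58), and pmd1 (6.94 and 5.70) and abc3 (4.20 and 3.52) in molasses only. Of 6 phosphate genes 3 and 2 were bound (50% and 33.3%). The acid phosphatase gene pho1 (14.3 and 17.3, against 6.63 and 9.54) and the transporter gene tgp1 (6.62 and 4.93, against 5.21 and 5.91) were bound in both, and at tgp1 the values of the media overlapped. A region 1056 bp upstream of the transporter gene pho84, just beyond the limit, was also called in both (20.8 and 17.4, against 7.73 and 7.16). Of 9 cell separation genes 3 (33.3%) were bound in molasses, among them adg1 (22.0 and 16.5) and adg2 (3.23 and 2.34), and 0 in glucose.

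**Figure D5:**
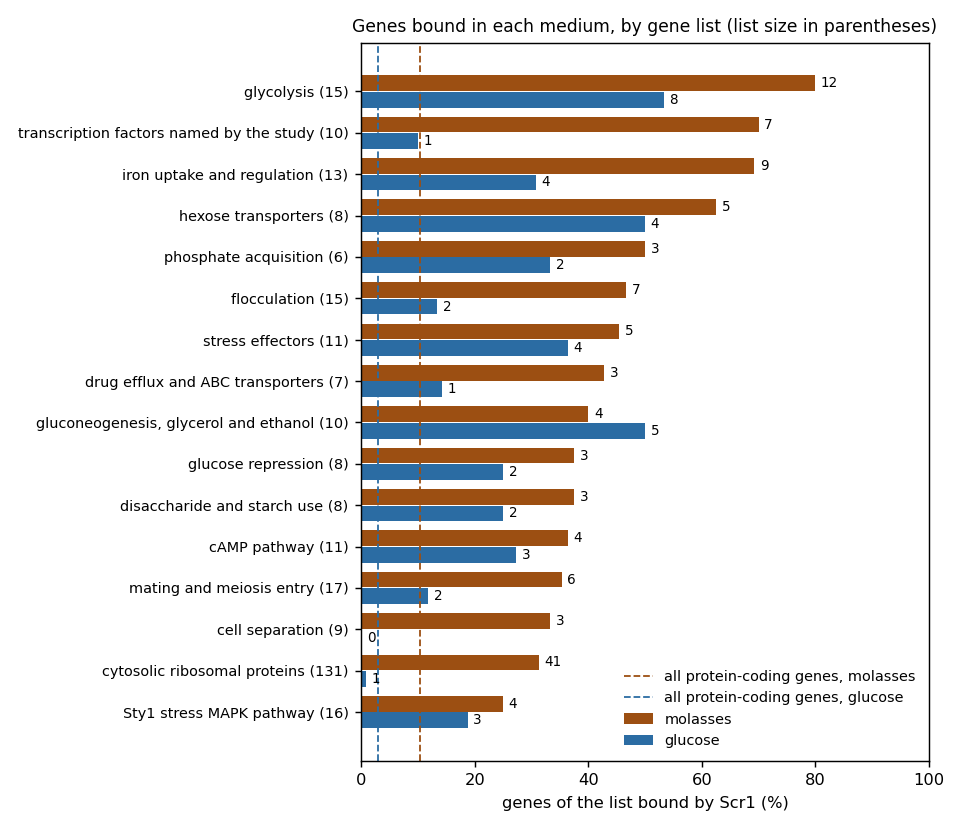
Percent of the genes of each list (horizontal) bound in molasses (brown, upper bar) and in glucose (blue, lower bar), with the number bound at the end of each bar and the list size in parentheses. Dashed lines mark the shares over all protein-coding genes, 10.4% in molasses and 2.93% in glucose. Glycolysis has the longest molasses bar (12 of 15), and the ribosomal proteins have 41 of 131 in molasses and 1 in glucose.

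Cytosolic ribosomal protein genes were a separate case. Of 131 such genes, 41 (31.3%) were bound in molasses, against 1 (0.763%) in glucose (rps2). Over all protein-coding genes the shares were 10.4% and 2.93%. The peaks were weak: enrichment ranged from 1.56 to 3.67 in molasses replicate 1 (median 2.09) and from 1.45 to 3.41 in replicate 2 (median 2.02), and the best rank in replicate 1 was 533. The summit lay in a coding exon at 34 of the 41 (82.9%), against 14.9% of the 490 other molasses-bound genes, and downstream of the start at 39. At 30 of the 41 no glucose list had a peak, and at 10 only 1 had. With peaks of at least 3-fold enrichment, an alternative chosen after seeing the data, 1 of the 41 remained in molasses. In glucose replicate 1 taken alone, 21 ribosomal protein genes were bound, against 1 with both replicates. Without molasses replicate 1, 64 were bound in molasses. The part of transcription or of the lack of an untagged control in these peaks was not tested.

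Classes were also made from the annotated product of every gene, and most genes fell in none of those given here. Transport proteins had 53 of 202 genes bound in molasses and 21 in glucose (26.2% and 10.4%), oxidoreductases 42 and 17 of 222 (18.9% and 7.66%), and carbohydrate-active enzymes 8 and 6 of 39. Transcription factors had 21 and 6 of 124, and cell surface glycoproteins 6 and 0 of 16. Ubiquitin and proteasome genes (9 and 1 of 174, 5.17% and 0.575%), protein kinases (7 and 3 of 105, 6.67% and 2.86%) and ribosome biogenesis and translation genes (10 and 1 of 110, 9.09% and 0.909%) were below or close to the background of 10.4% in molasses and 2.93% in glucose. All ribosomal proteins, mitochondrial ones included, were at 48 and 1 of 222.

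Binding in the laboratory strain was compared by overlap of at least 1 bp. In lists of Scr1 from laboratory S. pombe in molasses, with 3485 regions called in both replicates that cover 19.6% of the genome, 238 of the 666 molasses-only regions of Wilmar-P had an overlap (35.7%), against 159 of the 185 regions of both media (85.9%). The 19.6% is a share of bases and not a background for overlaps of whole regions, and such a background was not computed. Molasses-only regions were narrower, with a median width of 374.5 bp against 745 bp for regions of both media, and weaker. The part of width and strength in the overlap was not tested.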

How the data were processed

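Per the labels and the study's methods, the authors trimmed the reads, aligned them to the S. pombe reference (ASM294v2), with Bowtie2 2.3.1 among the tools listed in the submitters' processing notes, and called peaks with MACS2 2.1.1 for each replicate against the input of its medium. The deposited lists give fold enrichment as a ratio, and significance as −log10 p and −log10 q, all computed by the authors. The q-value of every peak was about 0.01 or lower, as the smallest −log10 q was 2.07. Replicates were not pooled in these lists. The irreproducible discovery rate (IDR) step that the study applied across replicates is not in them.

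Here, peaks on chromosomes I, II and III were merged, matched and annotated as the report describes, with python 3.11.15, numpy 2.4.6, pandas 2.3.3 and scipy 1.17.1. The strongest peak by p represented a replicate in a region, the summit was the start column plus the offset column, replicate 1 gave the summit of a region, and ranks are by p within a list. Sequence and annotation were RefSeq ASM294v3. There, chromosome I has 5579133 bp, II has 4539804 bp and III has 2452883 bp, no peak passed these ends, and coordinates are the authors', counted from 1. Regions of the 2 media were paired with the strongest region they overlapped, a choice made after the files were seen. No test was made between regions or genes. Genes were named by a written rule: the 10 strongest regions of both media, the 10 strongest molasses-only regions (those within 50 kb of a chromosome end apart), every glucose-only region, the 5 highest and 5 lowest ratios, list members bound in either medium, and scr1. Of the listed genes, rfl1 and snq2 had no match in the annotation, and the values of 1 listed gene and some sequences are not reported here. The members, lists and alternatives were chosen with earlier results of these data known. The region, gene and word functions and an own implementation of the IDR model were tested on simulated data. No column of per-sample values was left unmapped.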

Additional observations from a re-analysis of the deposited data

Results flagged for a closer look

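Peaks outside chromosomes I, II and III were not part of the comparison. On the sequence named MTR in the authors' reference the molasses lists held 6 peaks in all, 3 in each replicate, with enrichments of 1.62 to 3.70, and the glucose lists held 0. The unplaced sequence had 1 peak in each list, with an enrichment of 19.0 and 15.4 in molasses, against 3.36 and 3.53 in glucose. Both molasses values were above both glucose values. These differences were not tested.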

How the results depend on the processing

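The deposited lists give no read depth, so how many weaker regions a deeper glucose library would add is unknown, and no untagged control was used here. No paired analysis was possible because the results come from no test, so no replicate block could be fitted. Cultures were divided between the media, but whether equal replicate numbers mark the same culture is not stated. Within replicate 1 the log2 ratio of enrichment was 1.501 and 72 regions were glucose only, and within replicate 2 these were 1.29 and 5. In all, 118 recalculated values stayed within their range of the reported one and 46 moved. For counts the range was a fixed ratio to the reported value. For shares and the log2 ratio it was the standard deviation between replicates 1 and 2, each taken alone. A reversal could be scored only for the log2 ratio, which stayed positive in every alternative. Alternatives on ribosomal protein genes, on every peak summit and on the pairing of regions were chosen after seeing the data.

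The count of glucose-only regions (2) moved most: it was 1 at a −log10 q of at least 5, 5 at an enrichment of at least 3, 1 at an IDR of at most 0.05, 23 with lists of equal length, 67 with regions called in either replicate and 100 when a match needed 0.5 of both regions. With enrichment of at least 3, molasses regions numbered 478, molasses-only regions 311 and molasses-only genes 204, and with lists of equal length 221, 78 and 43. Glucose-only genes were 25 with lists of equal length and 14 within 500 bp of the start. With regions called in either replicate there were 406 glucose regions and 297 molasses regions called in glucose, which were 100 when a match needed 0.5 of both. The upstream share of molasses-only regions was 58.5% at an enrichment of at least 3 and 53.0% by IDR, where regions of both media had 71.3% and 69.2%. Their Mig1-type share was 13.3% by the stricter q, 17.4% by enrichment, 16.1% by IDR, 15.4% with equal lengths, 15.2% with the overlap of 0.5, 13.5% at the summit of replicate 2, 6.76% within 50 bp and 18.6% within 200 bp. For regions of both media it was 17.8% within 50 bp and 45.4% within 200 bp.

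Leaving out 1 replicate at a time gave the following ranges. Glucose regions ranged from 200 to 386, glucose-only regions from 2 to 71 and glucose-only genes from 6 to 52. The upstream share ranged from 34.8% to 46.8% for molasses-only regions and from 54.3% to 69.9% for regions of both media. The Mig1-type share ranged from 12.2% to 12.6% and from 27.5% to 33.0%. The log2 ratio of enrichment ranged from 1.33 to 1.74.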
